A study of Mus musculus with 6 samples.

Results

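In 457 of the 55177 mouse genes covered by the annotation used here, an expressed protein-coding gene on an autosome had a main transcript with a very long internal exon. The main transcript was the one with the highest mean TPM (a level per transcript length and library) over all 6 libraries. It had to have at least 3 exons, with an exon of 1000 nt or longer that was neither the first nor the last. The gene's transcripts had to sum to a mean of 1 TPM or more. Of 9977 autosomal protein-coding genes at that level, 8957 had a main transcript with 3 or more exons, and the remaining 8500 of these without a long internal exon serve as the comparison below. Mean TPM over both groups chose the genes, so their levels are descriptions, and a gene can meet the rule through 1 group. Ranked in the WT libraries alone, 15 of the 457 would not qualify, among them 5 genes called higher below (Dnajc14, Iqsec1, Lrp10, Nfe2l1 and Setdb1). Ranked in the Wtap KO libraries alone, 23 would not, among them the called Ahdc1, Cd55, Tubgcp6 and Zfand4. Those of these 9 outside the rule for named genes are named because of this, after their values were seen. At the exon length threshold, Dgcr8 (1000 nt), Bbx and Fam193b (1006 nt each) were just inside, with log2 fold changes of -0.094, -0.29 and -0.39. Zdhhc8 (998 nt), Atg9a and Chst15 (997 nt each) were just outside, with 0.42, 0.14 and 0.57. At the expression threshold, Prr36 (1.005 TPM), Sergef (1.01 TPM) and Gm42688 (1.03 TPM) were inside, and Abcc10 (0.972 TPM), Synpo and Gm28035 (0.966 TPM each) were outside.

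The RNA came from CD4+ T cells of C57BL/6J mice, cultured and sequenced as 3 wild-type (WT) and 3 Wtap knockout (Wtap KO) libraries. Per the labels, 1 µM 4-hydroxytamoxifen was given for 24 h to deplete Wtap, and the protocol text is shared by both groups. The cells were then activated with anti-CD3 and anti-CD28 under Th1 conditions (IL-12 and anti-IL-4) for 40 to 48 h, expanded in IL-2 and harvested on day 4. The Cre driver, the deleted part of Wtap, the animals' ages, and whether each library is a separate animal are not stated in the sources at hand, so a p-value here measures only how far these libraries spread, which may be technical.

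Most internal exons of vertebrate genes are short, and the splicing machinery recognises them as a unit across the exon. Unusually long internal exons, often wholly coding, are a feature of many nuclear and scaffold proteins. Wtap (Wilms tumour 1-associated protein) holds together the nuclear enzyme that adds a methyl group to N6 of adenosines in mRNA (m6A), commonly at the middle base of sequences such as GGACT. In mammalian mRNA, m6A lies mainly in long internal exons and in last exons, away from splice junctions, and it is read by YTH proteins, of which YTHDF2 promotes mRNA decay. No measurement of m6A was analysed here, so GGACT is treated as a sequence only.

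The sequences below show what part of such an exon looks like in genes of largest change. Each is the 120-base window of the coding part of the long exon with the most GGACT, the window nearest the 5′ end being taken where several tie. They are read from GENCODE M21 transcripts on GRCm38 and written 5′ to 3′ on the transcript strand. Capitals mark GGACT. The first set comprises genes that rose in Wtap KO.
Dapk1 (chr13:60760752-60760871, plus strand): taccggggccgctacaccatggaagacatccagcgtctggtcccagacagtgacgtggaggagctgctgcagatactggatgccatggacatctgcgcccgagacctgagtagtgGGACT
Ahdc1 (chr4:133061766-133061885, plus strand): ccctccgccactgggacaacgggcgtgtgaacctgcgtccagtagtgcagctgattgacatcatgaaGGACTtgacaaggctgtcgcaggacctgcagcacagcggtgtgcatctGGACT
Hipk2 (chr6:38818941-38819060, minus strand): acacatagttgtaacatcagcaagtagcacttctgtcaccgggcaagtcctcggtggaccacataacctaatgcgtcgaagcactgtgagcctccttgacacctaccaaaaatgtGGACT
Naip2 (chr13:100161080-100161199, minus strand): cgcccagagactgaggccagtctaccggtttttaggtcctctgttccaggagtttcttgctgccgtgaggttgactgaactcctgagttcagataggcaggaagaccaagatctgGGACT
The next set comprises genes that fell.
Arap2 (chr5:62749555-62749674, minus strand): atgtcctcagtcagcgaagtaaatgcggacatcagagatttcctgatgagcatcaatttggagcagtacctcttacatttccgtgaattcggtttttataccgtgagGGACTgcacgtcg
Sp4 (chr12:118299434-118299553, minus strand): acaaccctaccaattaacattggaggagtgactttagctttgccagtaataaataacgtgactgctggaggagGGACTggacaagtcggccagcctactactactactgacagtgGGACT
Fyco1 (chr9:123828951-123829070, minus strand): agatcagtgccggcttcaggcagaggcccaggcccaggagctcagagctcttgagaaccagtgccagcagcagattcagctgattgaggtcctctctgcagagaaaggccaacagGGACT
Atf7ip (chr6:136560574-136560693, plus strand): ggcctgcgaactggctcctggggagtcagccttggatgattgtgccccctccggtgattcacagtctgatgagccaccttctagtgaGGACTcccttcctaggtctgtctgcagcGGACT
The last set shows a pair of YTHDF readers, which were added after their values were seen because each carries its coding sequence largely on a single long internal exon.
Ythdf1 (chr2:180910968-180911087, minus strand): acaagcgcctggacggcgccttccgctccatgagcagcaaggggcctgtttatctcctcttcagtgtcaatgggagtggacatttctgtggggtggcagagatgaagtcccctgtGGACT
Ythdf2 (chr4:132204413-132204532, minus strand): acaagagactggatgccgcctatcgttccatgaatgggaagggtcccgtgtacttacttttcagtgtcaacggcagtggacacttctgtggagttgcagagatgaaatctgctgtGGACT
Both directions of change are thus represented by exons that hold the motif. The Ythdf1 and Ythdf2 windows have the same base at 94 of 120 positions (78.3%), compared position by position, and end in the same GGACT. The windows were chosen for the motif, so its presence in them is no finding.

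Over all the long internal exons, GGACT was about as frequent as in ordinary internal exons. In genes with a protein_coding main transcript, 410 long internal exons (754778 bases) held 820 GGACT on the transcript strand, or 1.09 per kb. Ordinary internal exons of the same genes held 1.01 per kb, internal exons of the comparison genes 1.12 per kb, and last exons 0.868 per kb in the long-exon genes and 0.993 per kb in the comparison genes. The reverse complement AGTCC, counted in the same way as a control for base composition, occurred 1.275 times per kb in the long internal exons and 0.948 times per kb in internal exons of the comparison genes. Cut into consecutive windows of 120 bases, 11.98% of the long internal exons' windows held at least 1 GGACT, against 12.8% for internal exons of the comparison genes and 10.95% for their last exons. In 92 of the 457 genes (20.1%) the long exon held no GGACT.

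The exons themselves were mostly coding. Their length ran from 1000 to 9266 nt with a median of 1492 nt, which was a median of 31.6% of the main transcript. In 274 of 457 genes (60.0%) every base of the exon was coding. It was the second exon in 125 genes and the penultimate in 78, and its length was a multiple of 3 in 165 (36.1%). A group of 56 exons (12.3%) spanned an intron annotated in another transcript of the gene, so they can be read as a retained intron. That held for 19 of the 385 genes with a protein_coding main transcript and for 37 of the 72 with another kind (38 retained_intron, 27 nonsense_mediated_decay, 7 processed_transcript). In 41 genes an exon of another gene overlapped the long exon, and in 160 the main transcript held less than 50% of the gene's TPM.

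The libraries held 32363139 to 44039467 estimated counts. As a check of the labels, total Wtap was at 114, 106 and 94.3 CPM (counts relative to library size, scaled by the trimmed mean of M-values) in WT and 114, 120 and 119 CPM in the knockout (0.16 ± 0.10 SE on the log2 scale, adjusted p = 0.371 in edgeR). The transcript Wtap-205 was at 27.0, 22.9 and 18.2 TPM in WT and 5.14, 5.50 and 4.63 TPM in Wtap KO, and Wtap-203 at 0 to 0.236 TPM against 8.31 to 11.4 TPM. The knockout label therefore rests here on transcripts and not on total RNA. Wtap KO 3 stood apart in Kdm5d, a gene of the Y chromosome, with 63.3 CPM where the other libraries had 2.43 to 3.53 CPM. The defining T cell genes were abundant in both groups, with 6 CD4 T cell markers summing to 3070 to 3410 TPM in WT and 2530 to 2750 TPM in Wtap KO. Of these 6, 2 were called lower in Wtap KO and none higher, where 9.23% of all genes tested were called in either direction. Dendritic cell markers summed to 3.52 to 12.2 TPM in WT and 28.5 to 39.9 TPM in Wtap KO, with 2 of 6 tested genes called higher. These were H2-Aa and Cd74, and the 5 other dendritic cell genes were at most at 0.356 TPM in each library. The 2 CD8 T cell markers summed to 7.18 to 7.79 and 11.4 to 13.9 TPM, and 1 of them was called higher. Among macrophage and monocyte markers, 1 of 3 tested was called higher. No marker gene has a long internal exon by the rule, and the part of other cells in the results below was not tested. In such bulk samples, fewer cells of a type and less RNA per cell cannot be told apart.

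Genes with a long internal exon were more often higher than lower in Wtap KO. All 457 passed the filter on low counts, and in edgeR's quasi-likelihood test, with p-values adjusted over 17610 genes and a threshold of 0.05, 58 rose (12.7%) and 11 fell (2.41%), while 388 did not pass. The background over all genes tested was 5.75% higher and 3.49% lower (9.23% in either direction), and in the comparison genes it was 6.19% and 3.87% (10.1% in either direction). With the main transcript ranked in WT alone, 53 of 451 genes rose (11.8%) and 11 fell, and where it had to have the long exon in WT and in Wtap KO separately, 50 of 422 rose (11.8%) and 10 fell. The median log2 fold change was 0.13 (quartiles -0.077 and 0.375), against -0.00058 over all genes tested and -0.018 over the comparison genes. A positive fold change was seen in 297 of 457 genes (65.0%), against 47.6% of the comparison genes. All 3 Wtap KO libraries lay above all 3 WT libraries in 151 genes (33.0%), with a background of 17.2% over all genes tested and 18.1% over the comparison genes. They lay below in 43 (9.41%), with a background of 15.5% and 19.1%. Among the called long-exon genes, rises were also the larger changes. The 58 had a median fold of 1.73 and 19 of them reached 2-fold, whereas the 11 falls had a median fold of 1.44 and log2 fold changes from -0.87 to -0.40. The fold sizes of called genes in the comparison genes were not set beside these.

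The counts depended on single libraries, here and over all genes tested. With WT 2 left out 19 long-exon genes rose (4.16%). With Wtap KO 1, 2 or 3 left out 16 (3.5%), 17 (3.72%) and 30 (6.56%) rose. Over all genes tested, 2.18%, 1.56%, 1.45% and 2.61% rose in those fits. In the same order 2, 0, 0 and 6 long-exon genes fell, against 0.921%, 0.628%, 0.54% and 1.26% of all genes. At an unadjusted p under 0.05 in edgeR, 100 long-exon genes were higher and 20 lower without Wtap KO 1. Without Wtap KO 2, 113 were higher and 20 lower. No background was counted at that threshold. Without WT 1 the counts were 80 rises (17.5%) and 17 falls (3.72%), against 7.47% and 5.05% of all genes. DESeq2 on all 6 libraries called 80 rises (17.5%) and 21 falls (4.6%), against 7.75% and 6.88% of all genes. Of the 69 called genes, 15 were called in each of the 6 fits that left out a library, and these were rises. The median log2 fold change of the long-exon genes exceeded that of the comparison genes by 0.14, and by 0.11 to 0.17 when a library was left out.

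Seen library by library, each gene's log2 CPM was set against its own mean over the 6 libraries. The median of these deviations over the 457 genes was -0.11, -0.087 and -0.018 in WT 1 to 3. In Wtap KO 1 to 3 it was 0.068, 0.036 and 0.12, so the groups did not overlap. WT 3 lay closest to the Wtap KO libraries, and there the median of the comparison genes was also shifted, at 0.031. The summed TPM of the long-exon genes was 0.758%, 0.755% and 0.748% of all TPM in WT and 0.874%, 0.814% and 0.902% in Wtap KO.

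**Figure D1:**
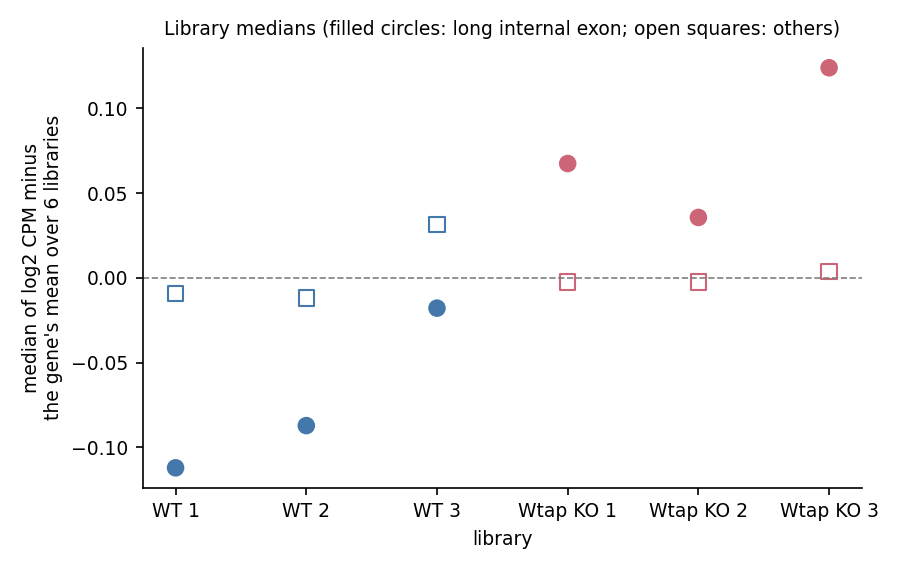
Median deviation of log2 CPM from each gene's mean over the 6 libraries, for each library on the horizontal axis, with WT in blue and Wtap KO in red. Filled circles are the 457 genes with a long internal exon, which lie between -0.11 and -0.018 in WT and between 0.036 and 0.12 in Wtap KO; open squares are the 8495 tested comparison genes, which lie between -0.012 and 0.031.

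The shift did not begin at 1000 nt. Over the 8952 tested genes with 3 or more exons, the median log2 fold change was -0.063 where the longest internal exon was under 150 nt (2181 genes), -0.050 at 150 to 199 nt and -0.029 at 200 to 299 nt. It was 0.062 at 300 to 499 nt (909 genes) and 0.14 at 500 to 999 nt (704 genes). Beyond the threshold it was 0.13 at 1000 to 1499 nt (232 genes), 0.079 at 1500 to 1999 nt (102 genes), 0.19 at 2000 to 2999 nt (71 genes) and 0.079 at 3000 nt or more (52 genes). Calls followed the same outline. From 500 to 999 nt, 88 of 704 genes rose (12.5%) and 12 fell, a share much like that of the long-exon genes, while under 150 nt 5.64% rose and 5.18% fell. Among the 385 long-exon genes with a protein_coding main transcript, exon length itself was hardly related to fold change (Spearman rho 0.038 across genes, a description, since genes share libraries and base composition).

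**Figure D2:**
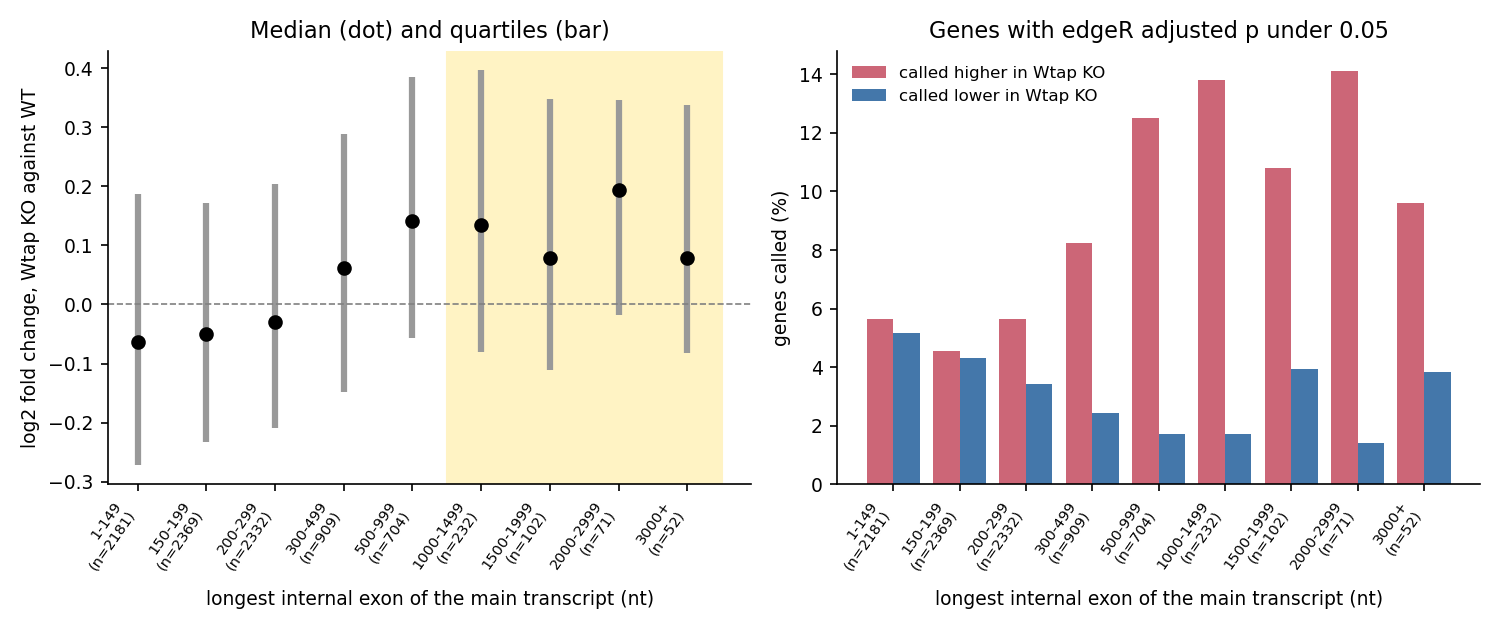
Genes with 3 or more exons grouped by the longest internal exon of the main transcript (horizontal axis, nt, number of genes in brackets). Left, median log2 fold change of Wtap KO against WT (dots) and quartiles (bars), with the shaded bins being the long-exon genes; right, percent of genes called higher (red) and lower (blue), which is already 12.5% higher at 500 to 999 nt.

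Transcript length varied along with exon length, with a median of 960 nt in the bin of shortest exons and 8482 nt in that of longest. Median GC content stayed between 47.1% and 50.8% over the exon length bins. It was 48.5% in the long-exon genes and 50.1% in the comparison genes. Within bins of GC content of the main transcript, the median log2 fold change of long-exon genes and comparison genes was -0.073 and -0.17 under 43% GC, 0.097 and -0.10 at 43 to 47%, 0.13 and -0.020 at 47 to 52%, and 0.275 and 0.078 at 52% or more. The long-exon genes were thus higher within each GC bin, and in both sets the values climbed with GC. At 52% GC or more, 28 of 152 long-exon genes rose (18.4%), against 279 of 3362 comparison genes (8.3%) and 5.75% of all genes tested. Within bins of transcript length the long-exon genes were at 0.094 to 0.22 and the comparison genes at -0.028 to 0.0050. By mean TPM, the medians stood the other way round at 1 to 3 TPM (0.12 in 69 long-exon genes, 0.155 in 1099 comparison genes) and were farthest apart at 30 TPM or more (0.15 in 69 genes, -0.11 in 2461 genes). The part of expression level in the shift was not tested. With a GC term in edgeR, the difference between the medians of long-exon and comparison genes was 0.18, against 0.14 without it, and with a term for transcript length it was 0.11.

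Fold changes were higher where the long exon was rich in GGACT, and also where the transcript was rich in GC. The 385 genes with a protein_coding main transcript were split into 3 equal parts by GGACT per kb of the long exon, with bounds at 0.681 and 1.34 per kb. The median log2 fold change was 0.090, 0.10 and 0.25 from low to high density. Called higher were 13 of 128 (10.2%), 15 of 128 (11.7%) and 25 of 129 genes (19.4%), and called lower 1, 1 and 4 (3.1%). The same split by the control AGTCC gave medians of 0.18, 0.19 and 0.13. There 23 of 127 (18.1%), 21 of 129 (16.3%) and 9 of 129 (6.98%) were called higher and 3, 1 and 2 lower. Over all genes tested 5.75% were higher and 3.49% lower, so the 9 of 129 and the 4 falls are near the background. Split by GC content, the medians were -0.014, 0.18 and 0.325. Within GC bins, genes of high GGACT density and the others had medians of 0.13 (42 genes) and -0.0040 (112 genes) under 47% GC. At 47 to 52% they were both at 0.18 (35 and 65 genes), and at 52% or more they were at 0.41 (52 genes) and 0.27 (79 genes). Across genes, Spearman's rho with log2 fold change was 0.19 for GGACT density, -0.020 for AGTCC density and 0.41 for GC content, given as descriptions.

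The long-exon genes differed by the kind of main transcript. Where it was protein_coding, 53 of 385 genes rose (13.8%) and 6 fell (1.56%), with a median of 0.16. In 7137 comparison genes of the same kind, 6.15% rose and 3.98% fell, with a median of -0.021. Where it was of another kind, 5 of 72 rose and 5 fell (6.94% each), with a median of -0.0083. The background over all genes tested was 5.75% higher and 3.49% lower. Comparison genes with a main transcript of another kind were not set beside them. The 38 genes whose main transcript is annotated retained_intron had 2 rises (5.26%) and 5 falls (13.2%) and a median of -0.019. These non-coding transcripts are often assembled from partly processed RNA, and kallisto splits shared reads among them and their coding relatives. The difference between the kinds has no test of its own.

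**Figure D3:**
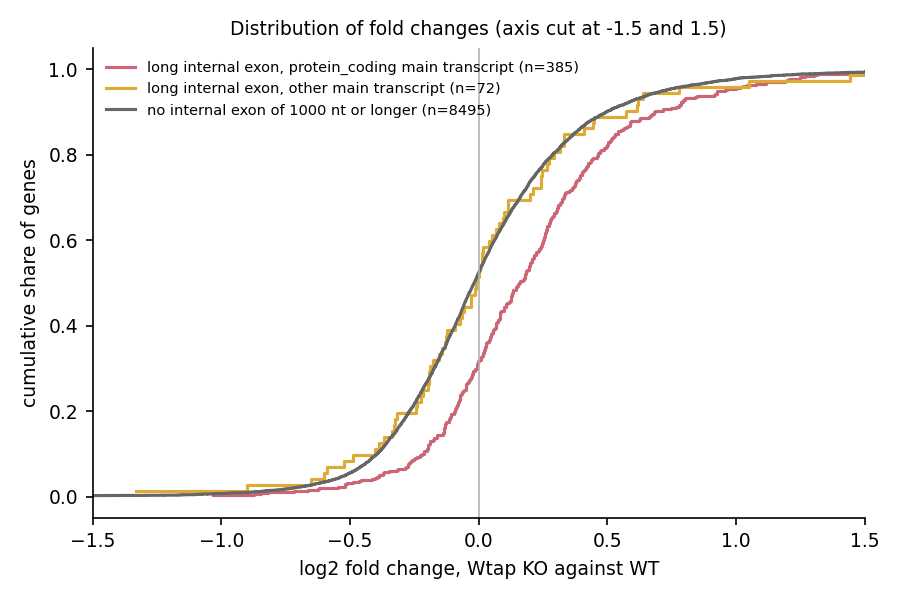
Cumulative share of genes (vertical axis) by log2 fold change of Wtap KO against WT (horizontal axis, shown from -1.5 to 1.5). The curve of the 385 long-exon genes with a protein_coding main transcript (red) lies to the right of the 8495 comparison genes (grey), whereas the 72 long-exon genes with another main transcript (yellow) lie along the grey curve.

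The largest rises among genes with a mean of 10 CPM or more in the higher group included 2 kinases. Dapk1, a calmodulin-regulated kinase linked to cell death, has a 1250-nt exon 26 of 27 (chr13:60760635-60761884, nearly all coding). It was at 5.28, 4.72 and 4.94 CPM in WT and 17.4, 17.9 and 15.8 CPM in Wtap KO. The groups lay far apart (log2 fold change 1.77 ± 0.14 SE, edgeR adjusted p = 0.00108). Hipk2, a nuclear kinase that phosphorylates p53 and transcription factors, has a wholly coding second exon of 1084 nt (chr6:38818230-38819313). It was at 32.1, 28.0 and 29.6 CPM in WT and 96.4, 86.8 and 84.4 CPM in Wtap KO. This was a 2.98-fold rise (1.58 ± 0.11, edgeR adjusted p = 0.00108).

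Enc1, a Kelch-domain adaptor of ubiquitin ligases, has most of its coding sequence on a second exon of 1814 nt (chr13:97244971-97246784). Its values were 25.6, 36.9 and 39.8 CPM in WT and 86.3, 83.2 and 76.9 CPM in the knockout (1.27 ± 0.16, edgeR adjusted p = 0.00397). All Wtap KO libraries were above the highest WT library. Naip2, a sensor of bacterial proteins in the inflammasome, was at 8.59 to 11.0 CPM in WT and 22.7 to 26.4 CPM in the knockout (1.30 ± 0.14, edgeR adjusted p = 0.00216). It belongs to a family of near-identical copies, between which reads can be split wrongly. The uncharacterised gene 1700017B05Rik, with an exon of 2755 nt, was at 22.6 to 24.9 and 46.1 to 64.1 CPM (1.25 ± 0.14, edgeR adjusted p = 0.00245). Tex15, a germ cell gene of meiosis and transposon silencing, has a main transcript annotated nonsense_mediated_decay and was at 10.9, 6.66 and 5.32 CPM in WT and 21.7, 26.1 and 27.9 CPM in Wtap KO. Its rise was 1.73 ± 0.25 (edgeR adjusted p = 0.00641).

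Ahdc1, an AT-hook DNA-binding protein, carries nearly its whole coding sequence on exon 5 of 6, which has 4902 nt (chr4:133061376-133066277) and 12 GGACT, the most of any long exon here. It was at 7.13, 6.35 and 14.6 CPM in WT and 28.9, 25.8 and 29.7 CPM in Wtap KO. WT 3 stood above the other WT libraries, though below all Wtap KO libraries (1.59 ± 0.29, edgeR adjusted p = 0.0148). Leaving out WT 1, WT 2 or a Wtap KO library ended its call (adjusted p up to 0.0647). Dapk1, Hipk2, Enc1, Naip2, 1700017B05Rik and Tex15 were called in each leave-one-out fit.

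Outside the rises and falls of largest fold, 6 rises had the smallest p-values, and each was called in every leave-one-out fit. Dtx3l, a ubiquitin ligase of the DNA damage and interferon responses, was at 149, 155 and 156 CPM in WT and 247, 253 and 256 CPM in Wtap KO. The libraries of each group lay close together and the groups far apart (0.72 ± 0.089, edgeR adjusted p = 0.00339). Nfe2l1, the transcription factor that restores proteasome synthesis, was at 14.97, 16.1 and 18.9 CPM in WT and 33.0, 32.2 and 32.5 CPM in the knockout (0.97 ± 0.125). Like Setdb1, it met the rule only through Wtap KO, where it is higher, so its values are a description. Dcaf1, a substrate receptor of CUL4 ubiquitin ligases, was at 47.1 to 52.1 and 76.7 to 84.3 CPM (0.72 ± 0.099, edgeR adjusted p = 0.00518). Rbbp6, a ubiquitin ligase and 3′ end processing factor, was at 189 to 208 and 301 to 345 CPM (0.68 ± 0.10, edgeR adjusted p = 0.00641). The remaining pair, Setdb1 and Ythdf2, are described with their groups.

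**Figure D4:**
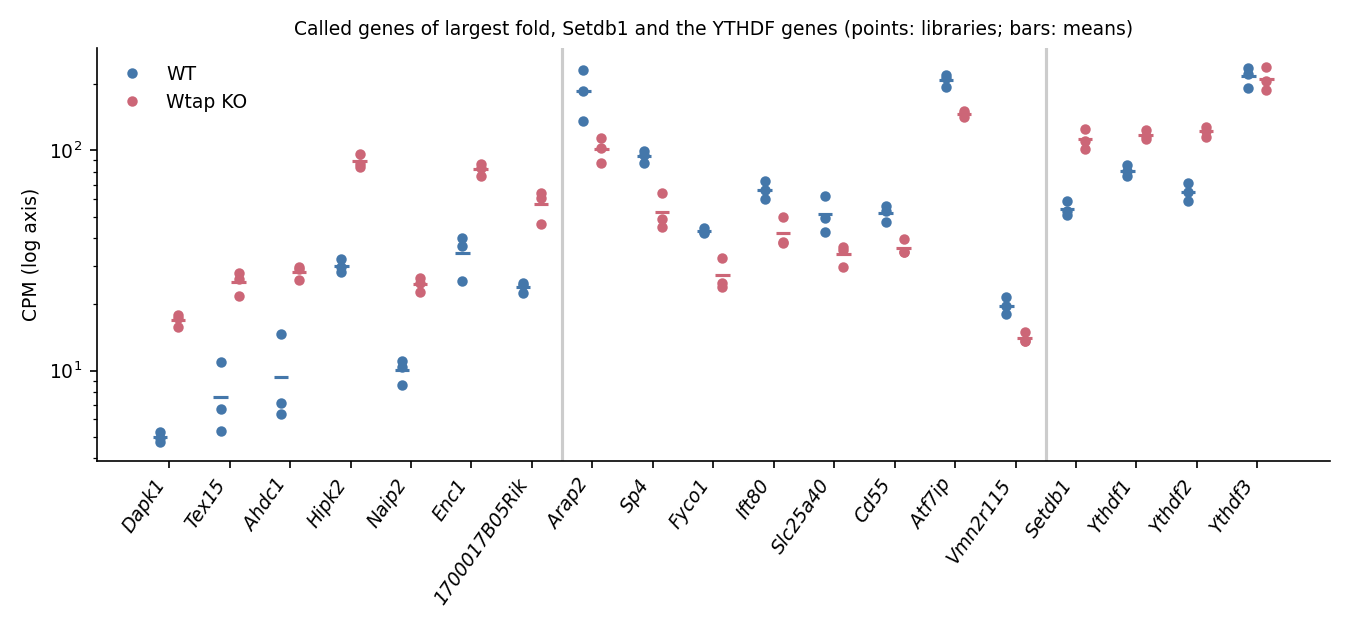
CPM on a log axis for each library (points) and the group mean (bars), WT in blue and Wtap KO in red. Left, 7 called rises and, in the middle, 8 called falls of large fold among genes with a mean of 10 CPM or more in the higher group; right, Setdb1 and the YTHDF genes, of which Ythdf3 is the one gene of the plot whose groups overlap.

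Falls were fewer and smaller. Arap2, a GTPase-activating protein for ARF GTPases, was at 232, 187 and 137 CPM in WT and 87.4, 103 and 113 CPM in Wtap KO. The WT libraries spread widely, though each was above the highest Wtap KO library (-0.87 ± 0.19 SE, edgeR adjusted p = 0.0255). Sp4, a zinc finger activator of the SP family, has a wholly coding exon of 1555 nt (chr12:118298638-118300192). It was at 99.6, 87.6 and 95.3 CPM in WT and 44.7, 48.6 and 64.1 CPM in the knockout (-0.84 ± 0.145, edgeR adjusted p = 0.0118). Wtap KO 3 was the closest to WT. Fyco1, an adaptor that moves autophagosomes along microtubules, was at 42.2, 44.5 and 42.6 CPM in WT and 25.1, 23.9 and 32.6 CPM in the knockout (-0.66 ± 0.14, edgeR adjusted p = 0.0226). Atf7ip, a partner of SETDB1 in histone H3 lysine methylation, was at 220, 193 and 214 CPM in WT and 141, 147 and 151 CPM in the knockout (-0.51 ± 0.096, edgeR adjusted p = 0.0162). On log2(TPM + 1) its change was -0.225 (limma adjusted p = 0.23).

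The other 4 of the 8 largest falls had a main transcript annotated retained_intron. Ift80, a subunit of the intraflagellar transport complex, was at 59.9 to 72.5 CPM in WT and 38.1 to 50.0 CPM in the knockout (-0.65 ± 0.14, edgeR adjusted p = 0.0244). Slc25a40, a mitochondrial carrier, was at 42.5 to 62.2 and 29.7 to 36.5 CPM (-0.60 ± 0.16, edgeR adjusted p = 0.0475). Cd55, a surface protein that protects cells from complement, was at 47.3 to 55.7 and 34.5 to 39.4 CPM (-0.52 ± 0.11). Cd55 met the rule only through WT, where it is higher, so its values are a description. Its change was -0.26 on log2(TPM + 1) (limma adjusted p = 0.242). Vmn2r115 is named as a vomeronasal receptor, but its main transcript, which held all of the gene's TPM, has an annotated intron of 8914 nt within an exon of 9266 nt. It was at 18.01 to 21.6 and 13.6 to 14.9 CPM (-0.49 ± 0.13, edgeR adjusted p = 0.0490), and it belongs to a large family of similar copies. None of these 8 falls was called in every leave-one-out fit. Each lost its call without Wtap KO 1 and without Wtap KO 2, and Arap2, Fyco1, Ift80, Slc25a40, Cd55 and Vmn2r115 also without WT 2, with adjusted p up to 0.0715 (Sp4) to 0.204 (Vmn2r115). Arap2, Slc25a40 and Vmn2r115 lost it without Wtap KO 3 as well, and Vmn2r115 without WT 3.

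The longest internal exons belonged to genes of which most were not called. After Vmn2r115 came Spen, a nuclear receptor corepressor and Xist-binding protein (8020 nt, all coding), at 34.2, 43.2 and 72.7 CPM in WT and 49.3, 43.6 and 58.8 CPM in Wtap KO. The groups overlapped (log2 fold change 0.015 ± 0.25, edgeR adjusted p = 0.982). Ankrd11, a chromatin regulator (6518 nt, all coding), was at 215 to 276 and 222 to 258 CPM, and Crybg3 (6136 nt, all coding) at 59.2 to 76.9 and 59.0 to 63.4 CPM, both with overlap. Mki67, the proliferation antigen that coats mitotic chromosomes (6836 nt, all coding), was at 1690, 1419 and 1562 CPM in WT and 1871, 1971 and 2206 CPM in Wtap KO. The groups were apart, without a call (0.37 ± 0.11, edgeR adjusted p = 0.0689). Srrm2, a spliceosome scaffold of nuclear speckles (6569 nt, all coding), was at 1451, 1717 and 1833 CPM in WT and 2160, 1953 and 2141 CPM in Wtap KO, likewise apart and not called (0.32 ± 0.11, edgeR adjusted p = 0.112).

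Srrm2 and Mki67 were also the most abundant, at a mean of 339 TPM for Srrm2 and 178 TPM for Mki67. Between and after them came Srsf5 (203 TPM), Ncl (198 TPM) and Themis (143 TPM). Srsf5, a splicing regulator of the SR family, was at 392, 407 and 438 CPM in WT and 304, 309 and 323 CPM in Wtap KO. Its groups did not overlap and it fell by 0.40 on the log2 scale (SE 0.094, edgeR adjusted p = 0.0334), but leaving out WT 2, WT 3 or a Wtap KO library ended the call (adjusted p up to 0.158). Its main transcript is annotated retained_intron. Ncl, the nucleolar protein nucleolin, was at 905, 685 and 695 CPM in WT and 943, 1065 and 1026 CPM in Wtap KO and was not called (0.41 ± 0.13, edgeR adjusted p = 0.0829). Themis, a T cell receptor signalling protein of thymocytes, was at 1150, 780 and 573 CPM in WT and 472, 547 and 500 CPM in Wtap KO. It was not called (-0.72 ± 0.22, edgeR adjusted p = 0.0767), with WT 3 close to the Wtap KO libraries.

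Genes of the m6A pathway itself include 4 with a long internal exon. Ythdf2 was at 70.8, 64.5 and 58.6 CPM in WT and 116, 123 and 128 CPM in Wtap KO, a 1.89-fold rise without overlap (0.92 ± 0.11, edgeR adjusted p = 0.00276). It was called in each leave-one-out fit. Ythdf1 was at 76.3, 80.7 and 85.7 CPM in WT and 113, 116 and 124 CPM in Wtap KO, a 1.46-fold rise (0.54 ± 0.098, edgeR adjusted p = 0.0140). That call was lost without WT 2, Wtap KO 1 or Wtap KO 2 (adjusted p up to 0.0761). Ythdf3 was at 236, 222 and 193 CPM in WT and 188, 206 and 240 CPM in Wtap KO, with full overlap (-0.035 ± 0.125, edgeR adjusted p = 0.898). Each has a wholly coding exon of 1521 nt (Ythdf1), 1584 nt (Ythdf2) or 1599 nt (Ythdf3) holding 1 GGACT. Virma, the largest subunit of the methylation complex, has an exon of 1141 nt and was at 148 to 187 and 183 to 203 CPM, overlapping (0.21 ± 0.11, edgeR adjusted p = 0.289). Of the 9 other readers and erasers tested, 1 rose, and in the writer complex none of 9 tested genes was called (edgeR; 2 higher at an unadjusted p under 0.05, 1 higher in DESeq2).

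In the other gene lists, counts of long-exon genes called higher in edgeR are read against the 5.75% of all genes tested. DESeq2 called 7.75% of all genes higher and 6.88% lower, and no background was counted at an unadjusted p. Of 37 chromatin regulators with a long internal exon, 2 rose (5.41%, near the edgeR background) and none fell in edgeR. At an unadjusted p under 0.05 in edgeR, 8 were higher and 2 lower, and DESeq2 called 3 higher and 0 lower. The median was 0.042 against 0.12 in the 57 others of the list, of which 3 rose in edgeR. The pair called in edgeR was Rbbp6 and Setd1b, a histone H3 lysine 4 methyltransferase at 65.7, 74.4 and 104 CPM in WT and 152, 146 and 166 CPM in the knockout (0.92 ± 0.17, edgeR adjusted p = 0.0141, up to 0.0644 without WT 2, Wtap KO 1 or Wtap KO 3). Of 27 zinc finger and BTB factors, 1 rose in edgeR (3.70%, below the edgeR background) and none fell. At an unadjusted p under 0.05 in edgeR, 9 were higher and 1 lower, and DESeq2 called 6 higher and 1 lower. The median was 0.14 against 0.22 in 54 others, of which 8 rose in edgeR (14.8%). The edgeR rise was Zhx3, a zinc finger and homeobox repressor (0.62 ± 0.14, edgeR adjusted p = 0.0325, up to 0.125 when WT 2 or a Wtap KO library was left out). Prdm1, which encodes the repressor Blimp-1, was at 18.5, 16.7 and 11.0 CPM in WT and 9.12, 9.93 and 7.15 CPM in Wtap KO, just short of a call (-0.82 ± 0.22, edgeR adjusted p = 0.0503). Bach2, a repressor of effector differentiation, was at 268, 246 and 225 CPM in WT and 356, 342 and 295 CPM in the knockout (0.43 ± 0.11, edgeR adjusted p = 0.0507). Both pairs of groups lay apart, in opposite directions.

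Among 26 receptors, kinases and signalling scaffolds, 6 rose (23.1%) and 1 fell, with a median of 0.19 against 0.13 in 72 others, of which 10 rose (13.9%). Besides Hipk2 and the fall of Arap2, the named rises were Arhgap21, a GTPase-activating protein (27.1 to 43.3 CPM in WT, 50.6 to 66.7 CPM in Wtap KO), and Plec, the cytolinker plectin (98.3 to 158 and 190 to 242 CPM). Their adjusted p in edgeR was 0.0333 and 0.0357, and leaving out WT 2 or a Wtap KO library ended both calls (up to 0.136 and 0.138). Of 17 RNA-binding and RNA-processing genes, 2 rose (11.8%) and none fell in edgeR. At an unadjusted p under 0.05 in edgeR, 8 were higher and 1 lower, and DESeq2 called 4 higher and 1 lower. The median was 0.29 against 0.044 in 50 others, of which 5 rose in edgeR. The edgeR rises with a long internal exon were Helz2, an interferon-induced helicase (66.8 to 91.3 and 122 to 155 CPM), and Tnrc6c, a scaffold of microRNA silencing (59.9 to 85.3 and 121 to 141 CPM). Both lost the call without WT 2, Wtap KO 1 or Wtap KO 2 (adjusted p 0.0128 and 0.0146, up to 0.0618 and 0.0699). Of 14 DNA repair genes, 2 rose (14.3%, with 5 of 50 others) and none fell in edgeR. At an unadjusted p under 0.05 in edgeR, 4 were higher and 0 lower, and DESeq2 called 2 higher and 0 lower. The edgeR rises were Parp14, a mono-ADP-ribosyltransferase of interferon responses (edgeR adjusted p = 0.0258, up to 0.113 without a Wtap KO library), and Ercc5, the XPG nuclease (edgeR adjusted p = 0.0481, up to 0.188 when WT 2, WT 3 or a Wtap KO library was left out). Of 14 mitosis, centrosome and cilium genes none was called in edgeR (3 higher and 0 lower at an unadjusted p under 0.05, 2 higher in DESeq2), with a median of 0.18 against -0.10 in 70 others, of which 2 rose. No gene of the exon junction complex list has a long internal exon. The lists cover 139 of the 457 genes, with 15 of the 58 rises and 1 of the 11 falls.

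Whether transcripts with the long exon shifted against others of the same gene was asked separately. For each gene, the estimated counts of transcripts with an internal exon of 1000 nt or longer were divided by those of its other transcripts and the log2 ratio was tested with limma over 1177 genes, 350 of them long-exon genes. The other 107 had too few counts in one of the kinds. The rank of transcripts, which chose the long-exon genes, is not independent of this measure. In 4 of the 350 long-exon genes the share rose and in 2 it fell. The background was 1.36% of the genes tested in either direction (0.85% higher, 0.51% lower), so the 6 of 350 are near it. Where the long exon had to be in the main transcript of WT and of Wtap KO separately, 3 of 315 rose and 2 fell, and Setdb1 was not among them. Over the 350 genes the median log2 ratio was 0.013, and over all genes tested it was 0.029. Without WT 2, Wtap KO 2 or Wtap KO 3 the 6 became 3, 2 and 2, and 2 were called by edgeR when the gene total was used as offset.

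Setdb1, a histone H3 lysine 9 methyltransferase, met the rule only through Wtap KO: the long-exon Setdb1-204 was the most abundant transcript there, whereas Setdb1-202 was in WT. Its values are therefore given as a description. The gene was at 53.2, 51.0 and 58.9 CPM in WT and 111, 102 and 125 CPM in the knockout (log2 fold change 1.05 ± 0.115 SE). Long-exon transcripts held 39.1%, 46.9% and 45.0% of its estimated counts in WT and 66.1%, 69.9% and 70.9% in Wtap KO, so the groups lay apart. The limma call of this share was lost without Wtap KO 2 or Wtap KO 3. Setdb1-204, annotated retained_intron, was at 3.67, 4.23 and 4.53 TPM in WT and 13.5, 12.5 and 16.4 TPM in Wtap KO. The protein_coding Setdb1-202 was at 6.72, 5.61 and 6.64 TPM and 8.21, 6.23 and 7.91 TPM, with overlapping groups. The long exon of Setdb1-204 (exon 13 of 21, chr3:95337149-95339032, 1884 nt, GRCm38, minus strand) spans an intron of 1080 nt (chr3:95337266-95338345) that Setdb1-202 splices out, leaving it an exon of 687 nt. The ends of that intron are shown because the transcript that keeps it is the one with the larger difference, with the first and last intron bases, GT and AG, in capitals.
Setdb1 intron, 5′ end: gtcgggataaGTgagttggtggggtgta
Setdb1 intron, 3′ end: acccttttctctctgcAGatccaaatgt

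In the other 5 genes the gene total was not called in edgeR. Skil, an inhibitor of TGF-beta signalling, kept most of its counts on long-exon transcripts, at 99.3%, 98.9% and 98.3% in WT and 88.7%, 90.8% and 90.1% in Wtap KO (log2 ratio -3.29 ± 0.305, limma adjusted p = 0.00200; 0.0276 in edgeR against the gene total). Its Skil-203, which lacks the long exon, was at 0 to 0.116 TPM in WT and 1.44 to 2.00 TPM in Wtap KO, while Skil-201 was at 1.47 to 2.03 and 0.511 to 0.749 TPM. Ccdc88b, a scaffold of T cell maturation, was at 100% in each WT library because its other transcripts are listed at 0 there, and at 97.8 to 99.2% in Wtap KO (limma adjusted p = 0.00200, but 0.949 in edgeR against the gene total). In Esco1, 9930111J21Rik2 and Dennd4c the share was over 94% in each library, with group means of 99.5% and 99.9%, 95.8% and 98.9%, and 98.7% and 99.5%. Their calls (limma adjusted p = 0.0185, 0.0246 and 0.0354) were lost when single libraries were left out: WT 1, WT 2, Wtap KO 2 or 3 for Esco1, each library but WT 3 for 9930111J21Rik2, and each library for Dennd4c (adjusted p up to 0.104, 0.124 and 0.144). 9930111J21Rik2 has a near-identical neighbour, so its reads may be split wrongly.

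**Figure D5:**
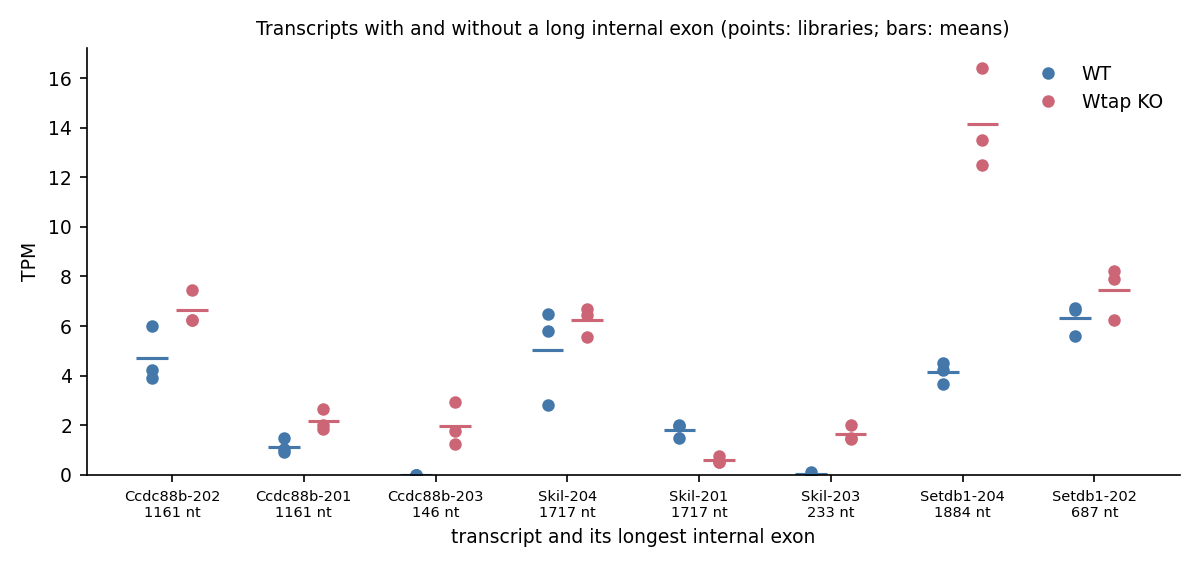
TPM of single transcripts in each library (points) with group means (bars), WT in blue and Wtap KO in red, with the length of the transcript's longest internal exon under its name. Setdb1-204, with 1884 nt, lies at 3.67 to 4.53 TPM in WT and 12.5 to 16.4 TPM in Wtap KO, whereas the groups of Setdb1-202, with 687 nt, overlap.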

How the data were processed

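The authors deposited 1 table per library with the estimated counts and TPM of 142647 transcripts. The submitters' processing notes name kallisto 0.44.0, DESeq2 and the build GRCm38 (mm10). kallisto splits reads shared by transcripts, so estimated counts as deposited can hold fractions, and the deposited TPM values are scaled to a fixed total by the authors. The index annotation and strand setting are not given in these sources. Transcripts were matched to GENCODE M21 without version (99.15% matched). Estimated counts were summed per gene, rounded and tested with edgeR 4.0.16 (R 4.3.3, quasi-likelihood, robust, TMM, filterByExpr), with no term but genotype and Benjamini-Hochberg adjustment over all 17610 genes. A fold change's SE is from the quasi-likelihood F. limma 3.58.1 tested log2((long-exon counts + 0.5)/(other counts + 0.5)) in genes with a mean of 10 or more in both kinds. Groups come from the sample titles.

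The long-exon genes, the gene lists and the marker lists were chosen with earlier results of these data known. Named genes were the 8 largest rises and 8 largest falls of called long-exon genes at 10 CPM or more, the 6 of smallest p after these, the 6 longest exons, the 5 highest in TPM, 3 on each side of a threshold, up to 6 by p in the share test and up to 4 per list. One gene that this rule names, and the sequence of another, are not reported here. On simulated counts for the gene test (17610 genes, 200 changed 2-fold), 47.5% of the changed genes were called, with 16 false calls. The false calls are to be read against the changed genes called, not against all 17610. Fewer genes were changed there than the 1626 called in the data. For the share test (1177 genes, 200 changed 4-fold), 84.5% were called, with 6 false calls. Alternatives were DESeq2 1.42.0, limma on log2(TPM + 1) or log2(TPM + 0.1), other scaling and filters, length and GC terms, a replicate term and leaving out each library. Depth limits lowly expressed genes, and SEs include the spread between libraries.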

Additional observations from a re-analysis of the deposited data

How the results depend on the processing

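The 58 rises stayed within 1.5 times under every alternative run on the same genes other than leaving out libraries, and the 69 called genes kept their sign in every fit. Leaving out 1 library gave 16 to 80 rises and 0 to 17 falls among the long-exon genes, 263 to 1361 rises and 98 to 921 falls over all genes tested, 5 to 18 genes and 2 to 8 long-exon genes with a changed share. The 11 falls became 21 with DESeq2, 4 with limma on log2(TPM + 1), 4 on log2(TPM + 0.1) and 7 on length-scaled counts, and the 614 falls over all genes became 1211 with DESeq2, 332 and 337 with limma and 1030 with a GC term. With an exon threshold of 500 nt the counts were 146 rises and 23 falls of 1161 genes, with 2000 nt 15 and 3 of 123, since more or fewer genes qualify. Restricting to a protein_coding main transcript, chosen after seeing the data, left 6 falls. The median log2 fold change moved from 0.13 to 0.19 on log2(TPM + 0.1) and to 0.077 with a length term. The genes with a changed share went from 16 to 9, and the long-exon genes among them from 6 to 2, in edgeR with the gene total as offset. Apart from the exon threshold and the fewer libraries, the cause was not tested. Single named genes gave 522 values under the other alternatives, of which 455 kept their side of the threshold. With 1 library left out, 268 of 348 values did so. Of the 32 named genes that were called, 13 kept the call in all 6 of those fits.

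The replicate numbers are not stated to pair libraries, and deviations of same-numbered libraries correlated at -0.10, 0.050 and 0.14, so no pairing is shown. With the replicate block, 41 long-exon genes rose and 4 fell, 347 genes fell over all tested, and 9 genes had a changed share.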
